A study of Mus musculus with 8 samples.

Results

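Genes of the differentiated proximal tubule were measured in mouse embryonic kidneys that lacked p53 and in kidneys with wild-type p53. The set was given as 35 gene symbols and was not chosen by a cut on these ratios. It was chosen with earlier results of these data known, however. Shares of all genes set beside the members below are therefore description and no test of the set. A symbol counted as measured when a probe of the array carried a RefSeq accession of that gene. This gave 46 probes for 33 of the 35 genes, among 41174 probes in all, and Miox and Pck1 had none. Of the 33 genes, 26 were bright enough to test, out of 12000 genes tested over the whole array.

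Null embryos, with p53 recorded as absent and no further detail of the allele in the labels, were set against embryos with wild-type p53. All embryos were on a C57BL/6 background and the whole embryonic kidney was taken at embryonic day 15.5. Each of the 8 arrays held RNA of both genotypes in 2 colours. Replicate 1 had 4 arrays and replicates 2 and 3 had 2 arrays each, with every pair of arrays dye-swapped. The labels call the replicates biological, and they do not say how many embryos an RNA came from. A value below is a log2 ratio of null over wild type, averaged over both dye orientations within a replicate, unless it is named as a level.

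The proximal tubule is the nephron segment next to the glomerulus. Its cells take back most of the filtered glucose, amino acids, phosphate and protein through transporters and receptors of the brush border, secrete organic anions and cations, and make glucose. In the mouse these genes come on as the first nephrons mature, while new nephrons are still being induced at the rim of the kidney, and the nuclear receptor Hnf4a is among the factors that bind the promoters of many of them.

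Promoters of 4 members are shown because the members differ in whether they hold a binding motif of such factors. The windows run from 250 bases before to 50 bases after the annotated start and come from RefSeq, on build GRCm38.p6. All 4 are written 5′ to 3′ on the strand of the gene. Capitals mark the HNF1 half-site GTTAAT or its reverse complement ATTAAC, and the HNF4 motif CAAAGTCCA or its reverse complement TGGACTTTG.
Slc34a1 promoter, chr13:55399398-55399697, plus strand: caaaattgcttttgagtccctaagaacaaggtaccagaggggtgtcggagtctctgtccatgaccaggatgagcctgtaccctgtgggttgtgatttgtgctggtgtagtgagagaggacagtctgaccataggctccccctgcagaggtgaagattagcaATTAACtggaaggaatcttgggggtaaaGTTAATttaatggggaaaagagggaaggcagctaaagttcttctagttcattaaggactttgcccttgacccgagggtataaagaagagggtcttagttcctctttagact
Slc3a1 promoter, chr17:85028097-85028396, plus strand: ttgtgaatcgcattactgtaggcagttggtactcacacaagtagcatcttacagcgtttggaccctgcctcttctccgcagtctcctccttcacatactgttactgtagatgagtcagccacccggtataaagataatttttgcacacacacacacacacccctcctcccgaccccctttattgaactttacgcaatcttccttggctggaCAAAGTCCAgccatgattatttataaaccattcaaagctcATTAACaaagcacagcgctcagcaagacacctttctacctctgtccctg
Pdzk1 promoter, chr3:96829815-96830114, plus strand: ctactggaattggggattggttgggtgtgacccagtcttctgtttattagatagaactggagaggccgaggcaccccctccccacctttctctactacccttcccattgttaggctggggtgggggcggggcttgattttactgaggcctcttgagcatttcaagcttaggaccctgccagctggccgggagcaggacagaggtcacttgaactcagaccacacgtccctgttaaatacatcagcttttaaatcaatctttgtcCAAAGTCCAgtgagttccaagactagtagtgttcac
Fbp1 promoter, chr13:62888233-62888532, minus strand: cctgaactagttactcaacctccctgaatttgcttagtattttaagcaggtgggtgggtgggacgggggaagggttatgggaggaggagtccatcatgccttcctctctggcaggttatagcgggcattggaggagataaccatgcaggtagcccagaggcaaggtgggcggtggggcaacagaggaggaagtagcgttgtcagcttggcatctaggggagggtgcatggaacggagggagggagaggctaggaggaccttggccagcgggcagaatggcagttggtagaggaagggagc
A window was found for 32 of the 35 members. Where a gene had more than 1 window, as Pdzk1 with 2, only the first listed was read. The half-site occurred in the window of 6 members, or 18.8% (Miox, Pck1, Slc22a6, Slc22a8, Slc34a1 and Slc3a1), against 7.2% of the 27025 genes with a window. The HNF4 motif occurred in 2 members, or 6.25% (Pdzk1 and Slc3a1), against 0.477% of genes. Slc34a1 held 2 half-sites, Slc3a1 held one motif of each kind, and the window of Fbp1, the member with the highest ratio below, held neither. No match of one motif overlaps a match of the other in the printed windows. A match describes letters and is no evidence of binding, and Slc3a1 and Pdzk1 were chosen for display after their matches were seen.

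The file headers place replicate 1 on slide 1 and replicates 2 and 3 on slide 2. Across the 20865 tested probes the ratios of replicates 2 and 3 correlated at 0.93, and those of replicate 1 with them at 0.06 and −0.15. The names under which the arrays were deposited give replicates 2 and 3 the same wild-type number, and their wild-type levels differed with an SD of 0.136 and 0.142 on the log2 scale (1 value per dye), against 0.174 and 0.15 for repeat arrays of the wild-type RNA of replicate 1. The same SD of their null levels was 0.183 and 0.199, against 0.186 and 0.134 for repeat arrays of the null RNA of replicate 1. The labels call replicates 2 and 3 separate, and whether they share an RNA of either genotype cannot be told from these values. The brighter probe of Trp53, the targeted gene, had ratios of −1.08, −0.47 and −0.45 in replicates 1, 2 and 3, below 0 on 8 of 8 arrays, and its second probe had 0.16 ± 0.13 (SD, n = 3). Xist, the RNA that coats the inactive X, stood well above background on 2 of 8 null channels, both of replicate 2, and on 8 of 8 wild-type channels. Its ratios were −2.34, −0.66 and −1.74 in replicates 1, 2 and 3, below 0 on 8 of 8 arrays. A difference in the sex of the embryos cannot be told apart from the genotype here. The arrays had 20617 to 24951 probes well above background in null RNA and 19322 to 25840 in wild-type RNA.

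Most members were already detectable at this stage in both genotypes. On slide 1, 27 of 33 genes were well above background on all 4 arrays in null RNA and 29 in wild-type RNA. On slide 2, which was dimmer, 26 were so in null RNA and 20 in wild-type RNA. Over all probes, the arrays of slide 2 had 20617 to 21181 well above background in null RNA and 19322 to 19773 in wild-type RNA. The dim side on slide 2 was thus wild type: Slc5a1, Slc3a1, Slc17a3 and Slc22a2 were well above background on 4 of 4 null channels and on 0 of 4 wild-type channels there. Aqp1, the water channel, and Cubn, the protein receptor cubilin, passed that mark in both genotypes on each array of slide 1 and on none of slide 2. Slc4a4, the basolateral sodium bicarbonate carrier, was well above background on 0 of 8 null channels and 4 of 8 wild-type channels on the brightest of its 3 probes, and the phosphate transporter gene Slc17a1 on 0 and 3. Slc9a3, the sodium proton exchanger, and the sulfate and dicarboxylate carriers Slc13a1 and Slc13a3 stayed below that mark on each channel of both genotypes. These 7 genes were not tested.

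**Figure D1:**
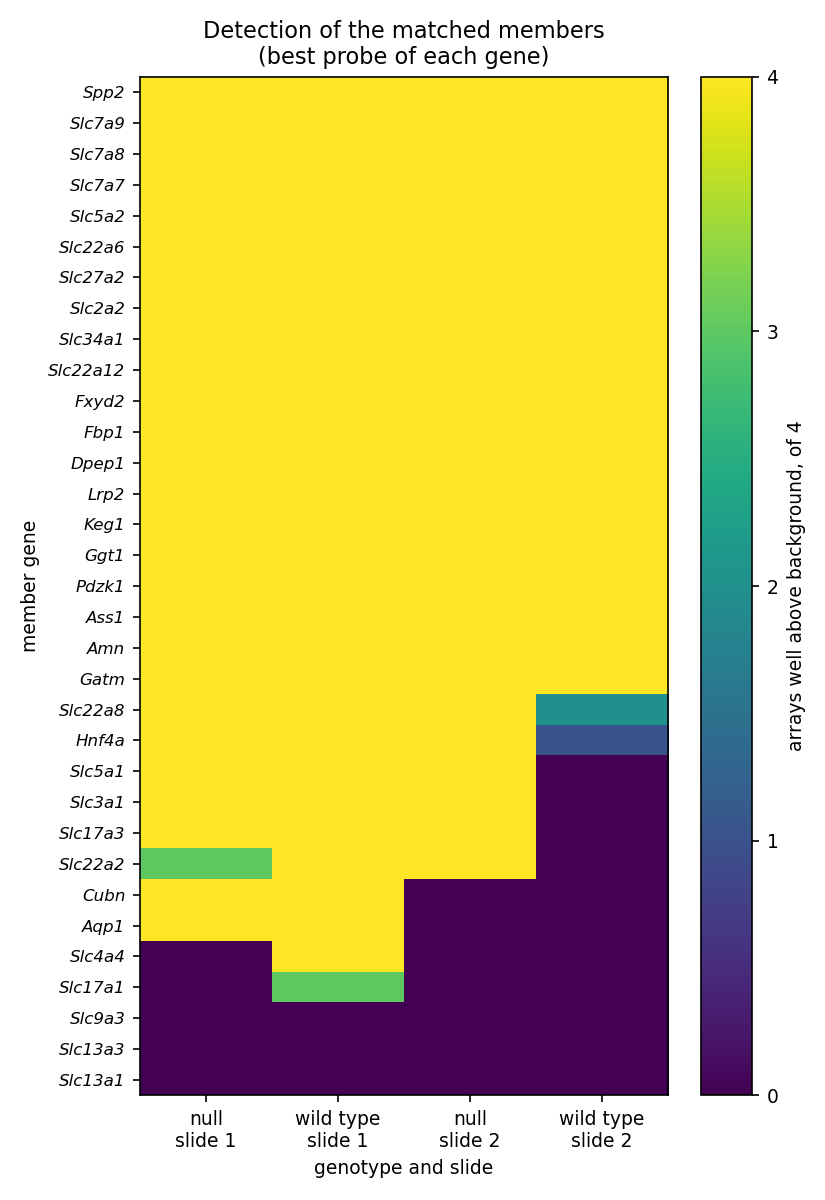
Arrays on which each of the 33 matched members was well above background, of 4 arrays per genotype and slide (colour), for the best probe of each gene. On slide 2, 26 genes reached this on all 4 arrays in null RNA and 20 in wild-type RNA.

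The comparison asked how loss of p53 goes along with expression of these genes. Over all 3 replicates the mean ratio was above 0 for 22 of the 26 tested members, against 50.8% of all tested genes, and the median of the members was 0.27 against 0 over all genes. None of the members passed the test. In limma's fit of the 3 replicate values, 0 of 20865 probes had an adjusted p under 0.05 (0%), the smallest adjusted p was 0.279, and 3583 probes had an unadjusted p under 0.05. One member, the glucose carrier Slc2a2, had an unadjusted p under 0.05, against 18.2% of genes. A fit to the single arrays, with a random effect of replicate, called 0 members higher (3.1% of genes) and 0 lower (3.08% of genes).

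The replicates did not go the same way. The medians of the members were −0.15, 0.36 and 0.50 in replicates 1, 2 and 3, while those of all tested genes were −0.02, 0.02 and 0.03. Centring each array on its median in place of loess gave member medians of −0.23 in replicate 1 and 0.60 on slide 2, where all genes had −0.13 and 0.32. The authors' deposited log ratios gave −0.25 and 1.12 for the members, where all genes had 0 and 0.03. The ratio was below 0 in replicate 1 and above 0 in both replicates 2 and 3 for 17 of 26 members, against 25.9% of genes, and the reverse for 2 members, Slc7a7 and Slc7a8, against 19.5% of genes. Of the 26, 3 lay above 0 in all 3 replicates, Slc2a2, Dpep1 and Gatm (20.4% of genes; Gatm was at 0.00 after rounding in replicate 1), and 0 lay below 0 in all 3 (19.7% of genes). Slide, scan and replicate cannot be told apart here. A change in the number of proximal tubule cells and a change in RNA per cell cannot be told apart either in RNA of whole kidneys.

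**Figure D2:**
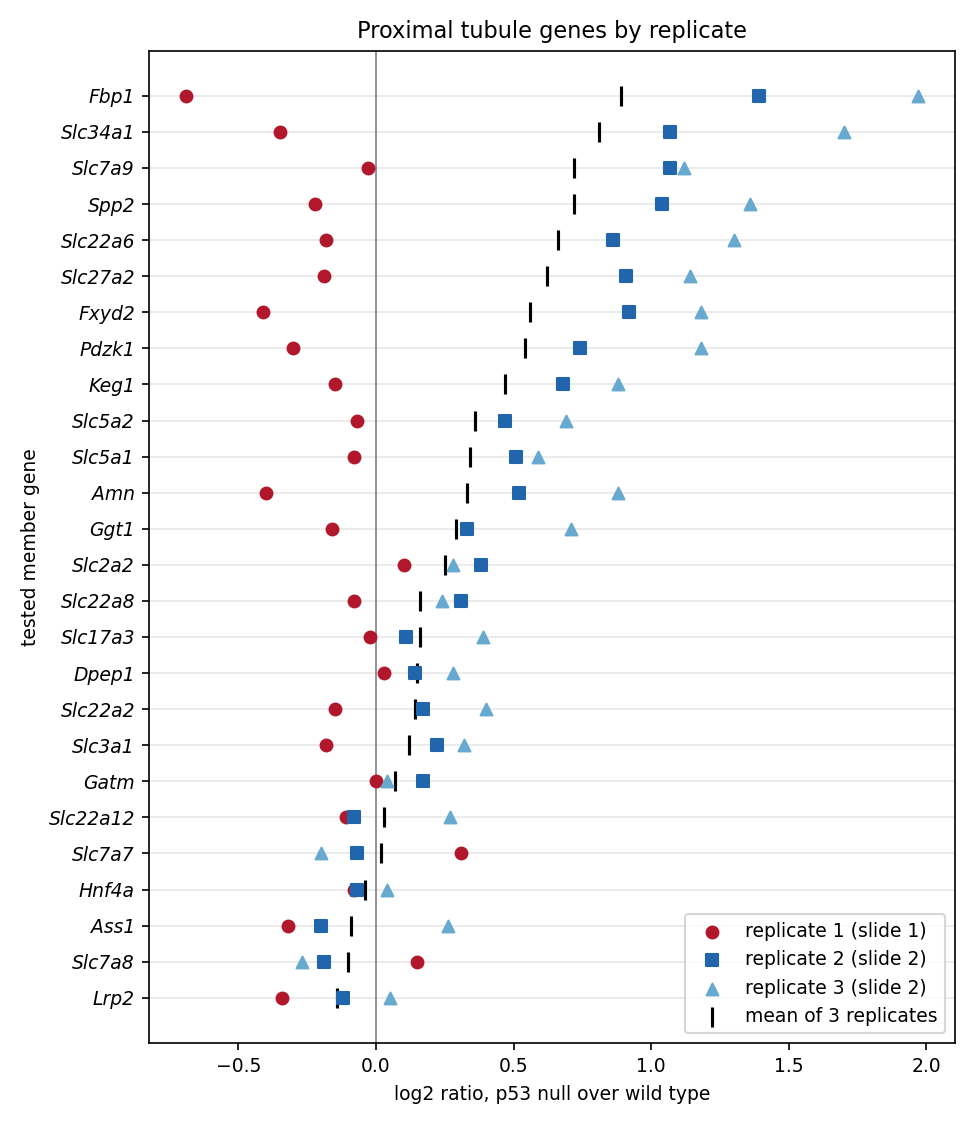
Log2 ratio of null over wild type (x axis) for each of the 26 tested members (y axis, ordered by mean), with 1 point per replicate and a black bar for the mean of the 3 replicates. For 17 members the point of replicate 1 lies below 0 and the points of replicates 2 and 3 lie above 0.

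Replicates 2 and 3 were also tested without replicate 1. In that fit 19 members were higher in null, against 32.9% of genes, and 1 member, Slc7a8, was lower, against 27.2% of genes (limma, adjusted p under 0.05 over all probes). The spread in this fit comes from a single difference per gene between 2 replicates of one slide and from the other genes. A mean above 1 on slide 2, that is over 2-fold higher in null, was found for 7 members: Fbp1, Slc34a1, Spp2, Slc7a9, Slc22a6, Fxyd2 and Slc27a2. Of all genes 1.38% did. The next test was made because earlier results of these data showed that the slides differ. Replicate 1 is alone on its slide, so the spread again comes from replicates 2 and 3 and from the other genes. Its p-values do not measure the spread between slides. A term for the slide tested the difference between replicates 2 and 3 and replicate 1 itself, and it passed upwards for 18 members (28.6% of genes) and downwards for 2 (19.3% of genes).

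Some members were kept only because null RNA was bright. Both genotypes met the filter for 21 of the 26 members, and 15 of those 21 (71.4%) were higher on slide 2 and 13 (61.9%) lay below 0 in replicate 1 and above 0 in both other replicates. For the 11389 genes kept through both genotypes these shares were 33.4% and 25.5%. Hnf4a, Slc17a3, Slc22a2, Slc3a1 and Slc5a1 were kept through null RNA alone, a choice that favours ratios above 0 on slide 2.

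**Figure D3:**
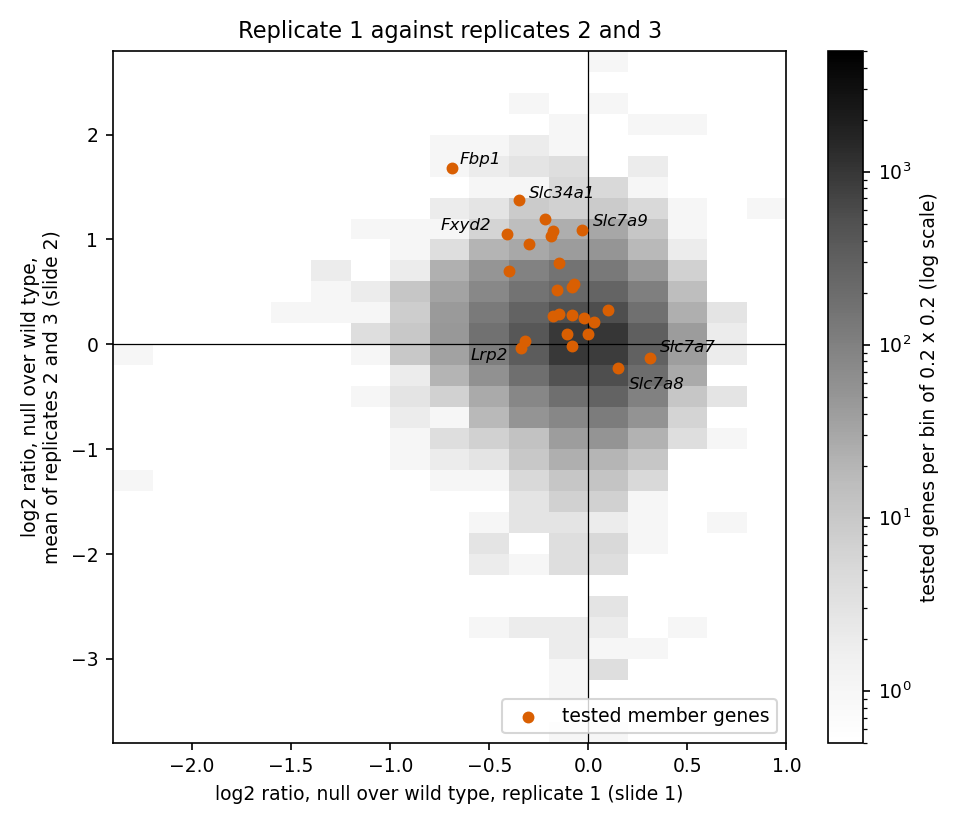
Log2 ratio in replicate 1 (x axis) against the mean of replicates 2 and 3 (y axis) for the 26 tested members (orange points), over the number of all 12000 tested genes per bin (grey, log scale). Most members lie to the left of 0 and above 0, with Fbp1 at −0.69 and 1.68 and Slc7a8 at 0.15 and −0.23.

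Hnf4a, the nuclear receptor that drives maturation of the segment in the mouse, stayed close to 0. Its ratios were −0.08, −0.07 and 0.04 in replicates 1, 2 and 3, with a mean of −0.04 ± 0.07 (SD, n = 3, limma adjusted p = 0.804). The arrays of replicate 1 gave −0.03 and −0.09 with null RNA in Cy5 and −0.10 and −0.08 with null RNA in Cy3. Those of replicate 2 gave −0.11 and −0.04, and those of replicate 3 gave −0.07 and 0.16, with Cy5 first. It was a dim probe, well above background on 8 of 8 null channels and 5 of 8 wild-type channels, so a difference in this gene would be compressed.

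Of the endocytosis receptors, which recover filtered protein, Amn, the partner of cubilin, had −0.40 in replicate 1, 0.52 in replicate 2 and 0.88 in replicate 3. On slide 2 it was 1.62-fold higher in null (limma adjusted p = 7.45e-09), and the mean over all replicates was 0.33 ± 0.66 (adjusted p = 0.533). Lrp2, the large receptor megalin, did not follow it. Its brightest probe had −0.34, −0.12 and 0.05, a mean of −0.14 ± 0.20 (adjusted p = 0.504), and it depended on the dye: with null RNA in Cy5 the arrays gave −0.10, −0.15, 0.06 and 0.25, and with null RNA in Cy3 −0.61, −0.50, −0.30 and −0.14, in the order of replicates 1, 1, 2 and 3. A second Lrp2 probe that passed the filter had −0.09, −0.77 and −0.60, so the 2 probes disagree on slide 2. With each array centred on its median in place of loess, the mean of the brightest probe was 0.09, where the median of all genes was 0.15.

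The glucose transporters had ratios above 0 on slide 2. Slc5a2, the sodium glucose carrier of the early segment, had −0.07, 0.47 and 0.69 in replicates 1, 2 and 3, and Slc5a1, its high-affinity relative of the late segment, had −0.08, 0.51 and 0.59. Slc5a2, kept through both genotypes, passed on slide 2 (adjusted p = 7.22e-08), and a second Slc5a1 probe had −0.11, 0.39 and 0.36. Slc5a1 was kept through null RNA alone, so its call on slide 2 supports no direction. Its wild-type RNA was not well above background there, so its fold is uncertain. Its levels gave a fold of 1.43 in replicate 2 and 1.5 in replicate 3. The dim channel was set at the lowest signal that counted as above background, or at its own signal if higher. Its own signal was used here, so these folds are those of the measured levels and no lower bounds. Slc2a2, the basolateral glucose carrier, was the member with the smallest p. It had 0.10, 0.38 and 0.28, a mean of 0.25 ± 0.14 (SD, n = 3), which did not pass (unadjusted p = 0.0429, adjusted p = 0.287, limma). Its arrays gave 0.05, −0.10, 0.29 and 0.15 in replicate 1, 0.49 and 0.26 in replicate 2 and 0.31 and 0.26 in replicate 3. Of its 8 arrays 7 lay above 0, and its second probe had −0.03, 0.20 and 0.23.

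Amino acid carriers are given by the membrane they serve. Slc7a9 and Slc3a1 form the transporter of the brush border for cystine and basic amino acids. Slc7a9 levels were 7.85, 8.72 and 8.83 (log2 channel intensity, replicates 1, 2 and 3) in null RNA, against 7.88, 7.65 and 7.72 in wild-type RNA. The ratio was thus near 0 in replicate 1, at −0.03, and 1.07 and 1.12 in replicates 2 and 3. Single arrays gave 0.05, −0.09, 0.04 and −0.12 in replicate 1, 1.09 and 1.06 in replicate 2 and 1.26 and 0.97 in replicate 3. Slc7a9 was 2.13-fold higher in null on slide 2 (adjusted p = 7.18e-14), with 0.72 ± 0.65 over all replicates (adjusted p = 0.292). Its partner Slc3a1 had −0.18, 0.22 and 0.32. Its levels gave a fold of 1.16 in replicate 2 and 1.25 in replicate 3, where wild-type RNA was not well above background. Slc3a1 was kept through null RNA alone, so these folds support no direction.

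The basolateral carriers of amino acids, Slc7a7 and Slc7a8, had the opposite signs. Slc7a7 had 0.31, −0.07 and −0.20 in replicates 1, 2 and 3, and Slc7a8 had 0.15, −0.19 and −0.27. Slc7a8 levels were 11.18, 11.49 and 11.52 in null RNA, against 11.04, 11.68 and 11.79 in wild-type RNA. Its arrays varied with the dye, with 0.05, −0.01, −0.45 and −0.55 where null RNA was in Cy5 and 0.31, 0.24, 0.08 and 0.00 where it was in Cy3, in the order of replicates 1, 1, 2 and 3. On slide 2 Slc7a8 passed as lower in null (0.853 of the wild-type level, adjusted p = 0.00615), Slc7a7 did not (adjusted p = 0.114), and the mean over all replicates was −0.10 ± 0.22 for Slc7a8 (adjusted p = 0.628). With median centring the mean of Slc7a8 was 0.15, the same as the median of all genes under that scaling (0.15), and neither Slc7a7 nor Slc7a8 then passed for a difference between the slides in the lower direction, nor did they in the deposited value table.

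Among the phosphate and sodium transport genes, Slc34a1, the main sodium phosphate carrier of the brush border, showed one of the widest gaps between the slides. Null levels were 7.92, 8.47 and 8.92 (log2 intensity, replicates 1, 2 and 3), against 8.27, 7.40 and 7.22 in wild-type RNA. The 4 arrays of replicate 1 gave −0.05, −0.68, −0.17 and −0.49, those of replicate 2 gave 1.32 and 0.81, and those of replicate 3 gave 1.80 and 1.60. The arrays of the 2 slides thus did not overlap, and all 4 arrays of slide 1 lay below 0. On slide 2 Slc34a1 was 2.61-fold higher in null (adjusted p = 1.69e-13), the slides differed by 1.73, and the mean over all replicates was 0.81 ± 1.05 (adjusted p = 0.373).

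Fxyd2, the gamma subunit of the sodium pump, had arrays of −0.31, −0.45, −0.38 and −0.49 in replicate 1, 0.86 and 0.98 in replicate 2 and 1.17 and 1.19 in replicate 3. It was 2.07-fold higher in null on slide 2 (adjusted p = 6.29e-13), with 0.56 ± 0.85 over all replicates (adjusted p = 0.424). Fxyd2 is also used by later nephron segments. Pdzk1, the scaffold that holds brush border transporters in place, had −0.30, 0.74 and 1.18, with null levels of 10.80, 11.44 and 11.79 against wild-type levels of 11.10, 10.70 and 10.62. The organic anion and phosphate transporter gene Slc17a3 had −0.02, 0.11 and 0.39. Its levels gave a fold of 1.08 in replicate 2 and 1.31 in replicate 3, where wild-type RNA was not well above background. Slc17a3 was kept through null RNA alone, so these folds support no direction.

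**Figure D4:**
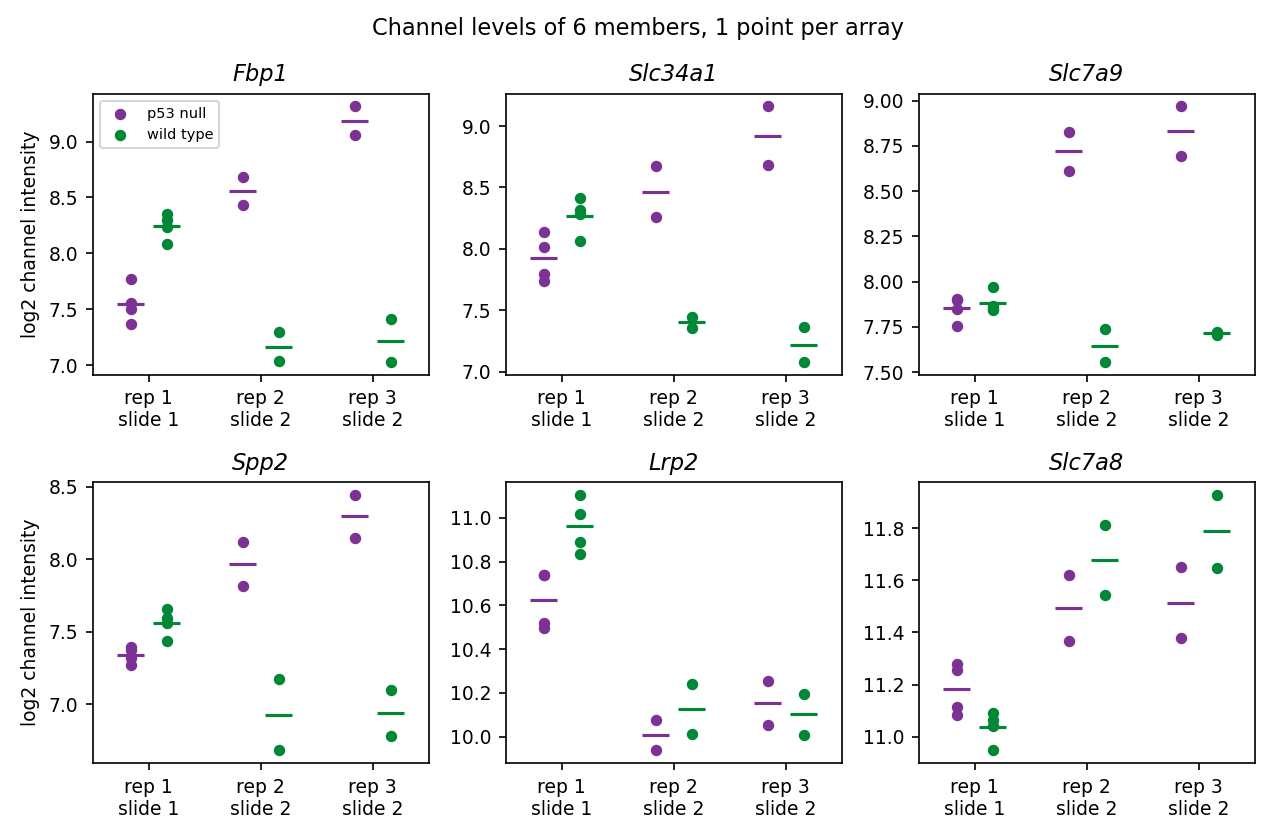
Log2 channel intensity (y axis) of 6 members by replicate (x axis), with 1 point per array, p53 null to the left of wild type, and a line at the mean of each replicate. For Fbp1, Slc34a1 and Spp2 the null mean lies below the wild-type mean in replicate 1, and all null points lie above all wild-type points in replicates 2 and 3.

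Of the organic anion and cation carriers, which secrete drugs and waste, Slc22a6 stood highest. It had −0.18, 0.86 and 1.30 in replicates 1, 2 and 3 and was 2.11-fold higher in null on slide 2 (adjusted p = 2.64e-12), with 0.66 ± 0.76 over all replicates (adjusted p = 0.342). Its relative Slc22a8, which lies near it on chromosome 19, had −0.08, 0.31 and 0.24. The cation carrier Slc22a2 had −0.15, 0.17 and 0.40. Its levels gave a fold of 1.13 in replicate 2 and 1.32 in replicate 3, where wild-type RNA was not well above background. Slc22a2 was kept through null RNA alone, so these folds support no direction. The urate carrier Slc22a12 had −0.11, −0.08 and 0.27, a mean of 0.03 ± 0.21 (adjusted p = 0.906), and did not pass on slide 2.

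Metabolic and brush border enzymes held the highest ratio of all members. Fbp1, the fructose bisphosphatase of glucose synthesis, had null levels of 7.55, 8.56 and 9.19 (log2 intensity, replicates 1, 2 and 3), against 8.24, 7.17 and 7.22 in wild-type RNA. Its arrays gave −0.31, −0.73, −0.79 and −0.93 in replicate 1, 1.39 and 1.39 in replicate 2 and 1.90 and 2.03 in replicate 3. It was 3.20-fold higher in null on slide 2 (adjusted p = 8.42e-16), at 0.620 of the wild-type level in replicate 1, and at 0.89 ± 1.40 over all replicates (adjusted p = 0.432). The difference between the slides was 2.37, the widest of any tested member.

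Slc27a2, which takes up and activates fatty acids, had −0.19, 0.91 and 1.14 and was 2.04-fold higher in null on slide 2. Keg1, a gene named for its expression in kidney, had −0.15, 0.68 and 0.88, and its second probe −0.03, 0.18 and 0.23. On slide 2 that second probe was well above background on 4 of 4 null channels and 0 of 4 wild-type channels. Its ratios there are thus uncertain. Ggt1, the glutathione-splitting enzyme of the brush border, had −0.16, 0.33 and 0.71. Dpep1, the dipeptidase of the same membrane, had 0.03, 0.14 and 0.28 in replicates 1, 2 and 3. Its arrays gave 0.01, −0.12, 0.10 and 0.12 in replicate 1, 0.09 and 0.19 in replicate 2 and 0.30 and 0.26 in replicate 3, so 7 of 8 lay above 0. Its mean of 0.15 ± 0.13 did not pass (adjusted p = 0.396).

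Gatm, which catalyses the first step of creatine synthesis, was near 0 throughout. It had 0.00, 0.17 and 0.04, with arrays of 0.00, −0.10, 0.15 and −0.05 in replicate 1, 0.13 and 0.21 in replicate 2 and 0.00 and 0.07 in replicate 3. Ass1, an enzyme of arginine synthesis, had −0.32, −0.20 and 0.26, and a mean of −0.09 ± 0.31 (adjusted p = 0.753). Its arrays gave −0.20, −0.33, −0.48 and −0.28 in replicate 1, −0.02 and −0.38 in replicate 2 and 0.28 and 0.25 in replicate 3, and the mean was 0.09 with median centring, where all genes had a median of 0.15. The secreted phosphoprotein gene Spp2 had a mean of 0.72 ± 0.84 (adjusted p = 0.342). Its null levels were 7.34, 7.97 and 8.30, against 7.56, 6.92 and 6.94 in wild-type RNA, its arrays gave −0.05, −0.28, −0.18 and −0.39 in replicate 1, 0.95 and 1.14 in replicate 2 and 1.35 and 1.37 in replicate 3, and it was 2.30-fold higher in null on slide 2 (adjusted p = 5.74e-14).

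Across the 26 members the mean of replicates 2 and 3 correlated with replicate 1 at −0.64, against −0.1 across all 12000 genes. Genes are not independent replicates, each ratio of a replicate shares 1 pair of RNAs over all genes, and no test was made of these values.

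Other genes of the proximal tubule were read from a list of 79 that holds none of the members, of which 75 had a probe and 53 were tested. The mean ratio was above 0 for 36 and below 0 for 17, with a median of 0.08, and 0 passed over all probes (limma), while 7 reached 0.05 unadjusted, a share below the 18.2% of all genes. By slide, their median was 0.17 on slide 2 and −0.08 on slide 1. On slide 2 alone 27 (50.9%) were higher in null, against 32.9% of all genes, and 8 were lower, against 27.2%. Among those with the smallest p were Agmat at 0.49 ± 0.31, the efflux pump gene Abcg2 at 0.28 ± 0.15, Ddc, the decarboxylase that makes dopamine, at 0.63 ± 0.49, and the cation exporter gene Slc47a1 at 0.49 ± 0.39 (SD, n = 3 each). Their adjusted p lay between 0.279 and 0.285. Each of these 4 lay above 0 in all 3 replicates.

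Genes of other nephron segments and of other cells are set beside the members here. The 11 tested loop of Henle and distal tubule genes all had a mean above 0 (median 0.33, with −0.04 in replicate 1 and 0.53 on slide 2), and 0 passed. For 15 collecting duct genes the median was −0.16 (−0.31 and −0.13), and for 8 podocyte genes it was 0.04 (−0.26 and 0.22). For 8 macrophage genes the median was 0.44 (−0.01 and 0.55), and the summed level of the 9 with a probe on slide 2 was 4270 to 5010 in null RNA, against 2890 to 3080 in wild-type RNA. Erythroid genes had a median of 0.31 over 6 (−0.22 and 0.62), with Alas2 at 1.81 and Hbb-y at −2.60 on slide 2. In parentheses replicate 1 stands first and slide 2 second, and 0 genes of these lists passed over all 3 replicates.

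Liver markers are given because several members, Fbp1 and Spp2 among them, are also genes of the liver. Of 18 markers 16 had a probe and 7 were tested, and their median was 0.05 (0.08 on slide 2, −0.03 on slide 1). On all 4 arrays of slide 2, 8 of the 16 were well above background in null RNA and 5 in wild-type RNA. Their summed level on slide 1 was 3360 to 3590 in null RNA and 4030 to 4140 in wild-type RNA, and on slide 2 it was 5350 to 6570 in null RNA and 2940 to 3100 in wild-type RNA. The tested markers differed. Afp had −0.42, 1.83 and 1.69 in replicates 1, 2 and 3, Fgb 0.10, 0.91 and 0.88, and Ahsg −0.06, 1.03 and 0.30. Ahsg was dim, well above background on 6 of 8 null channels and 4 of 8 wild-type channels. The remaining tested markers, C3, Vtn, Trf and Itih2, had means of −0.18, 0.02, 0.07 and 0.08 on slide 2. Apoh, F2, Fga and Ttr were on neither slide well above background in any channel. The part of these other cells in the ratios of the members was not tested.

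Glycolysis and hypoxia genes had the opposite sign to most members on slide 2. All 20 had a mean below 0 and 0 passed, their median was −1.86 on slide 2 and −0.14 on slide 1, and their summed level on slide 2 was 125000 to 178000 in null RNA, against 496000 to 564000 in wild-type RNA. On slide 1 the sums overlapped, at 154000 to 173000 in null RNA and 167000 to 211000 in wild-type RNA. The wild-type sum of slide 2 thus stood apart from the other 3 sets of channels. Its part in the ratios of the members was not tested.

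**Figure D5:**
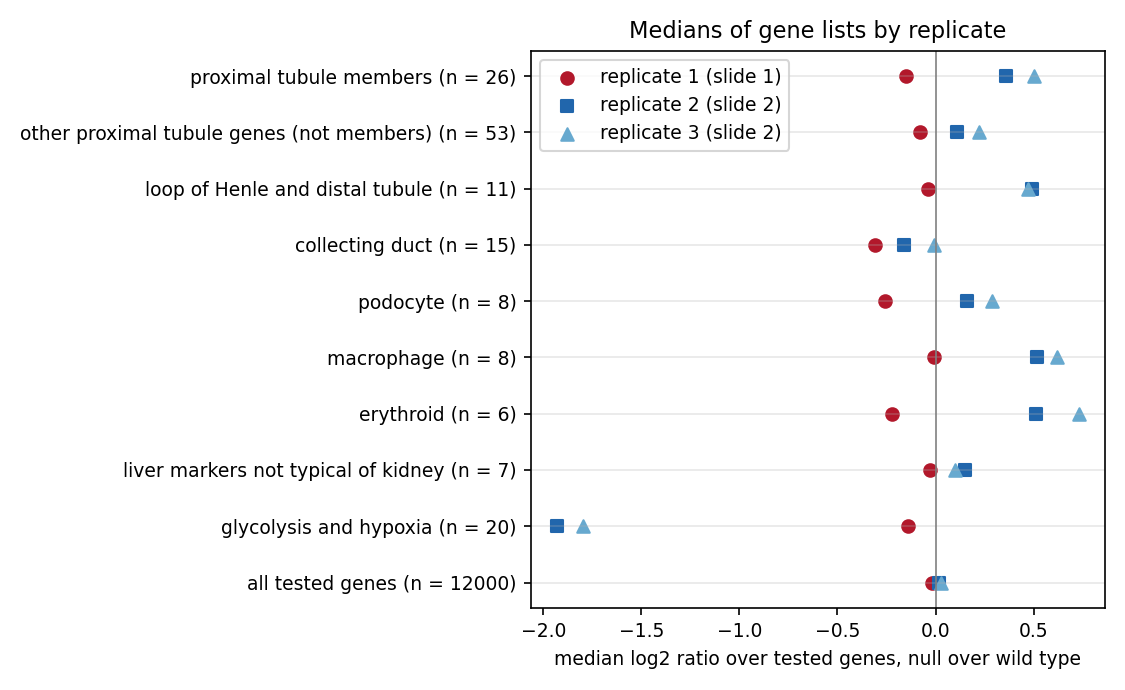
Median log2 ratio of null over wild type (x axis) for the members, other gene lists and all tested genes (y axis, with the number of tested genes), with 1 point per replicate. The members have −0.15, 0.36 and 0.50 in replicates 1, 2 and 3, and all genes lie within 0.03 of 0.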

How the data were processed

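Kidney RNA was hybridised to Agilent arrays with 2 colours. The deposited scanner files hold linear intensity, made by Agilent Feature Extraction (version 10.5.1.1 per the file headers, 6.1 per the submitters' processing notes), and the deposited value table holds the log10 ratio of the same program, turned to null over wild type on each array. Flags and probe accessions come from the deposited files as other columns. Per the file headers the design build is mm9, and names came from RefSeq accessions in the GRCm38.p6 annotation.

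Median spot signals were corrected by normexp (offset 50) and loess in limma 3.58.1 (R 4.3.3). The files used here hold no mean signal. A probe was kept if, in each replicate, one genotype cleared the program's background flag on 50% of arrays or more. After that 20865 probes were tested, and the brightest kept probe stands for a gene. limma tested 3 replicate values against 0 with Benjamini-Hochberg adjustment over all probes at 0.05. The number of arrays limits the precision, and an exact permutation of signs over 3 replicates gives p = 0.25 at best. Whether p-values reflect more than technical spread depends on how the replicates were made. Tested on simulated data over 20865 probes, the fit found 3 of 50 probes changed 1.5-fold and 23 of 50 changed 2-fold. It found 41 of 50 for both 4-fold and 8-fold, and made 2 false calls. These counts hold for the simulated spread. They are no measure of power in these data, where replicate 1 correlated with replicates 2 and 3 at 0.06 and −0.15. Members that were tested are named with their 3 replicates, the arrays of the 3 with one sign, the 4 highest, the 4 lowest and the 4 with the widest slide difference are given, and up to 6 of the other proximal tubule genes with an unadjusted p under 0.05. A few genes named by the rule are not reported here, though the tests and list counts include them. Members and lists were chosen with earlier results of these data known. Alternatives were the deposited table, median centring, an offset of 16, other filters, leaving out each replicate, slide as a block, 1 value per slide, a fit to single arrays with a random replicate effect, and the mean of kept probes. Proteins were not used here.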

Additional observations from a re-analysis of the deposited data

Results flagged for a closer look

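Each of the 26 tested members was checked for an array far from the others over its 8 arrays, and 1 had such an array: Hnf4a, at 0.16 on 1 array of replicate 3 with null RNA in Cy3, with the other 7 arrays between −0.11 and −0.03. The limit used marks about 1 in 20 groups of independent values by chance, and the arrays are repeats of 3 replicates.

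The difference between replicates 2 and 3 and replicate 1 passed limma's test (adjusted p under 0.05 over all probes) for 20 members. On the log2 scale, slide 2 minus slide 1, it was 2.37 for Fbp1, 1.73 for Slc34a1, 1.46 for Fxyd2 and 1.42 for Spp2. It was 1.26 for Pdzk1, 1.25 for Slc22a6, 1.21 for Slc27a2, 1.12 for Slc7a9 and 1.1 for Amn. Keg1 had 0.93, Ggt1 0.68, Slc5a2 0.64, Slc5a1 0.64, Slc3a1 0.45 and Slc22a2 0.43; the last 3 were kept through null RNA alone. Slc22a8 had 0.36, Ass1 0.36 and Lrp2 0.30. Slc7a7 and Slc7a8 differed the other way, by −0.44 and −0.38, but not with median centring or in the deposited value table, where 0 members passed in that direction. Slide and replicate cannot be told apart. Replicate 1 was alone on its slide, so the spread of this test comes from replicates 2 and 3 and from the other genes.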

How the results depend on the processing

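The count of calls depended on replicate 1. Of all probes, 0 passed with every replicate, and leaving out 1 replicate at a time gave 0 to 11699, the highest without replicate 1 (6424 higher and 5275 lower in null). Slide as a fixed block gave 8521 (4148 higher, 4373 lower), a fit to single arrays with a random replicate effect 1136, and 1 value per slide 0. Of the members, 0 passed with every replicate, 0 to 20 when leaving out 1 replicate (20 without replicate 1), and 14 with slide as a fixed block, where the spread comes from replicates 2 and 3 alone. The median of the members was 0.27, 0.12 to 0.43 when leaving out 1 replicate, 0.66 in the deposited value table, 0.15 with no filter (33 genes, 24 above 0 and 9 below), and 0.16 with slide as a fixed block and with 1 value per slide; the cause of the move in the value table was not tested. Median centring gave 25 of 26 members above 0, but moved the median of all genes to 0.15. Under it Ass1 had 0.09, Lrp2 0.09 and Slc7a8 0.15. When leaving out 1 replicate, the sign also turned for Ass1 (−0.26 to 0.03), Slc22a12 (−0.10 to 0.10) and Slc7a7 (−0.13 to 0.12), and Slc22a12 had −0.01 with slide as a fixed block and −0.01 with 1 value per slide. Of the other values of single members, 290 kept sign and side of the threshold and 34 passed it, all without replicate 1 or with slide as a block. The slide difference called 16 to 22 members over its alternatives, 16 (16 higher, 0 lower) in the value table and 22 (22 higher, 0 lower) with median centring, so the 2 lower calls, Slc7a7 and Slc7a8, were lost in both; without a replicate it could not be tested. The filter that asks for both genotypes was chosen after seeing the data. No paired analysis was possible because each array already compares both genotypes and the series has 1 group. Dim probes, near the offset, have compressed ratios.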
